A study of Mus musculus with 4 samples.

Results

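Cdkn1a, the gene of the cell cycle inhibitor p21, and 9 other genes linked to the tumour suppressor p53 (Mdm2, Ccng1, Btg2, Phlda3, Trp53inp1, Bbc3, Bax, Plk2 and Trp53 itself) were followed in mouse liver across 4 groups exposed to ethylbenzene or to saline. The genes were chosen by name, and every probe set annotated to them was read. Of the 10 genes, 8 had at least 1 probe set listed under their symbol, 16 probe sets in all, among 18193 genes on the array. Bax and Trp53 were not analysed here. Each of the 8 genes passed the filter on low signals through its brightest probe set (11513 genes passed in all), whereas 1 further probe set of Mdm2 and 1 of Plk2 did not.

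p53 is a transcription factor that accumulates after DNA damage and other stress and binds a paired decamer sequence near its target genes. Some targets halt the cell cycle, some trigger cell death, and others switch p53 off again, above all Mdm2, which encodes the ubiquitin ligase that marks p53 for degradation. Cdkn1a is the best known target for cell cycle arrest, but it is also driven by cytokine, growth factor and stress signals that do not need p53.

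The mice were C57BL/6J, 2 months old. Ethylbenzene, an aromatic solvent, was given intraperitoneally at 7 mmol per kg, and phosphate-buffered saline (PBS) served as its control. A first exposure of 2 injections 24 h apart was followed after 7 days by a second exposure, and the liver was taken 5 h after that. The groups are named by first and then second exposure: P+P (PBS, then PBS; 3 mice), E+P (ethylbenzene, then PBS; 3 mice), P+E (PBS, then ethylbenzene; 5 mice) and E+E (ethylbenzene both times; 5 mice). RNA was pooled within each group and hybridised to 1 Affymetrix array, so no difference could be set against the spread between mice, no test was possible, and pool size cannot be told apart from the second exposure.

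The values are probe set signals on a linear scale, printed here as deposited. A log2 ratio is the difference of log2(signal + 43.2) between 2 arrays after quantile normalization, and 2-fold (1 on that scale) is a fixed rule of size, not a test. Folds are on this scale, which understates differences of dim genes, and below a normalized signal of 120.0, the filter level, a value is close to background. Median signals ran from 129.9 to 153.1. The P+P array stood apart in 18S ribosomal RNA, whose 3 control probe sets had a geometric mean signal of 1872 there against 122.0 to 182.3 on the other arrays. The 3' to 5' ratio of the Actb control was 4.55 in P+P and 3.48 to 3.84 elsewhere. Actb itself was lower in P+P, at 18500.9 (3') and 4069.2 (5') against 41727.4 to 58046.3 and 10878.7 to 15399.9. The Gapdh 3' control was 57655.5 in P+P and 57312.4 to 61033.9 elsewhere. The comparison of E+E with E+P does not use that array. In bulk RNA, fewer cells of a type and less RNA per cell cannot be told apart.

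Promoter windows are shown for the genes with the highest ratios, Cdkn1a and Btg2, and for Ccng1 and Mdm2, classical p53 targets that stayed within 2-fold. Each is the 250 bases upstream of a start site in RefSeq (GRCm38.p6), 5′ to 3′ on the gene's strand. Capitals mark the 20-base paired p53 site in Cdkn1a (upstream start) and Ccng1, the p53 decamer in Mdm2, the cyclic AMP response element in Btg2, and GC boxes in Cdkn1a (downstream start).
Cdkn1a, upstream start, chr17:29090729-29090978, plus strand: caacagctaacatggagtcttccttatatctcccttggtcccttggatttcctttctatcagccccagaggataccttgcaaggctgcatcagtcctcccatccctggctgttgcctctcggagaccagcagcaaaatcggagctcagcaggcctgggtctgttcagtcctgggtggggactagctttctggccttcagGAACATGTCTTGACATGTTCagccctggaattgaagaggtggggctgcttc
Cdkn1a, downstream start, chr17:29093519-29093768, plus strand: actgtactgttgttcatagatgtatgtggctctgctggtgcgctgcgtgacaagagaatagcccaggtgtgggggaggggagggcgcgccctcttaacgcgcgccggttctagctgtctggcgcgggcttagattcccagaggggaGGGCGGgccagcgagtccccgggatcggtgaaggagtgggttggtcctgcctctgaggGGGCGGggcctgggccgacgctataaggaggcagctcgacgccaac
Ccng1, chr11:40755287-40755536, minus strand: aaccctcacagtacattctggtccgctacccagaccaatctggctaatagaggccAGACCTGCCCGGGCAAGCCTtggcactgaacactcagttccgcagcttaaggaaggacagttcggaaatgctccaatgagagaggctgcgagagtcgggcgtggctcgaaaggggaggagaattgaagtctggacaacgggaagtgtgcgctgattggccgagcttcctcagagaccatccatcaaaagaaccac
Mdm2, chr10:117710759-117711008, minus strand: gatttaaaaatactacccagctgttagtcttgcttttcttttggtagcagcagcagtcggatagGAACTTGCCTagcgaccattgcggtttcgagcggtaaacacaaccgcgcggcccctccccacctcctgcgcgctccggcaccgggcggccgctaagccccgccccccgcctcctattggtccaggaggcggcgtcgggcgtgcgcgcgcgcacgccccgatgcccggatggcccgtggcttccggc
Btg2, chr1:134079156-134079405, minus strand: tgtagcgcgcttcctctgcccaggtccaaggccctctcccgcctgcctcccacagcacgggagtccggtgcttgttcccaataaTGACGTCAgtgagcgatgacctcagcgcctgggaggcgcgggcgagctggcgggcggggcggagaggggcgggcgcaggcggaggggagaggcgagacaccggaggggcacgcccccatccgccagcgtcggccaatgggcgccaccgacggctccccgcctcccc

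Of the 10 genes, 9 had such windows, 12 in all because Cdkn1a and Bbc3 have several start sites, and Trp53inp1 is not in the table. A paired p53 site, taken as 2 abutting consensus decamers with at most 1 mismatch over 20 bases, was found in 25 of 32851 windows (0.0761%), and Cdkn1a and Ccng1 were among them. This search was chosen after the windows had been seen. In Cdkn1a the site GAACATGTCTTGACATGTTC began 51 bases before the upstream start and 2841 bases before the downstream start. A single exact decamer was in 7.13% of all windows and in 5 of the 12, those of Bax, Ccng1, Cdkn1a (upstream start), Mdm2 (GAACTTGCCT) and Trp53. The cyclic AMP response element TGACGTCA, a binding sequence of CREB and ATF factors, was in 1.55% of all windows and in those of Btg2 and Plk2. GC boxes (GGGCGG) were in 9 of the 12 windows and 32.7% of all, CCAAT boxes (CCAAT) in 5 and 33.8%, E-boxes (CACGTG) in 2 and 6.02%, and TATA boxes (TATAAA) in 1 and 12.4%. AP-1 sites (TGANTCA; 6.75% of all windows) and STAT sites (TTCNNNGAA; 7.02%) were in none of the 12. Both strands were searched, matches of different motifs overlapped in none of the 12 windows, and a match is a stretch of letters, not a measured binding site.

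Cdkn1a was among the genes that differed most between ethylbenzene and PBS given 5 h earlier. Its brighter probe set (1424638_at) had a signal of 125.5 in P+P, 89.2 in E+P, 7243.8 in P+E and 6720.6 in E+E. With PBS given second the normalized signal was just above the filter level in P+P (137.6) and below it in E+P (94.1), and both arrays after ethylbenzene were far above it. The log2 ratio was 5.34 for P+E against P+P (40.6-fold). For E+E against E+P it was 5.64, and with the dim E+P signal set to the filter level the gene was at least 42.0-fold higher. Among 11513 genes Cdkn1a had the 6th highest ratio for P+E against P+P. These comparisons share no array. The gene's other probe set (1421679_a_at) read 43.9, 59.4, 795.8 and 419.1 in the same order of groups. It gave the same direction with smaller ratios, 3.19 and 2.11, or at least 5.19-fold and at least 2.78-fold with both PBS signals at the filter level. The ratio that leaves out the P+P array was not the smaller one on the brighter probe set, but it was on the dimmer.

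Btg2 and Trp53inp1 were higher as well, on every probe set. Btg2, an antiproliferative gene whose product promotes the removal of messenger RNA tails, had signals of 243.4 in P+P, 404.0 in E+P, 2935.9 in P+E and 2188.0 in E+E. The PBS arrays and the ethylbenzene arrays did not overlap. The log2 ratios were 3.33 for P+E against P+P (10.1-fold, rank 30 of 11513) and 2.33 for E+E against E+P (5.04-fold, rank 99). A second Btg2 probe set, with 250.2, 406.9, 1767.3 and 1587.3, gave 2.58 and 1.86. Trp53inp1, which encodes a stress-induced nuclear and autophagy protein, had signals of 2718.6, 2017.3, 5921.1 and 5659.6. Its log2 ratios were 1.15 (2.22-fold) and 1.51 (2.85-fold), and its other probe set, with 472.0, 523.9, 1148.5 and 1184.0, gave 1.21 and 1.13. Its probe sets agreed in direction and lay much nearer the 2-fold line than those of Cdkn1a and Btg2.

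**Figure D1:**
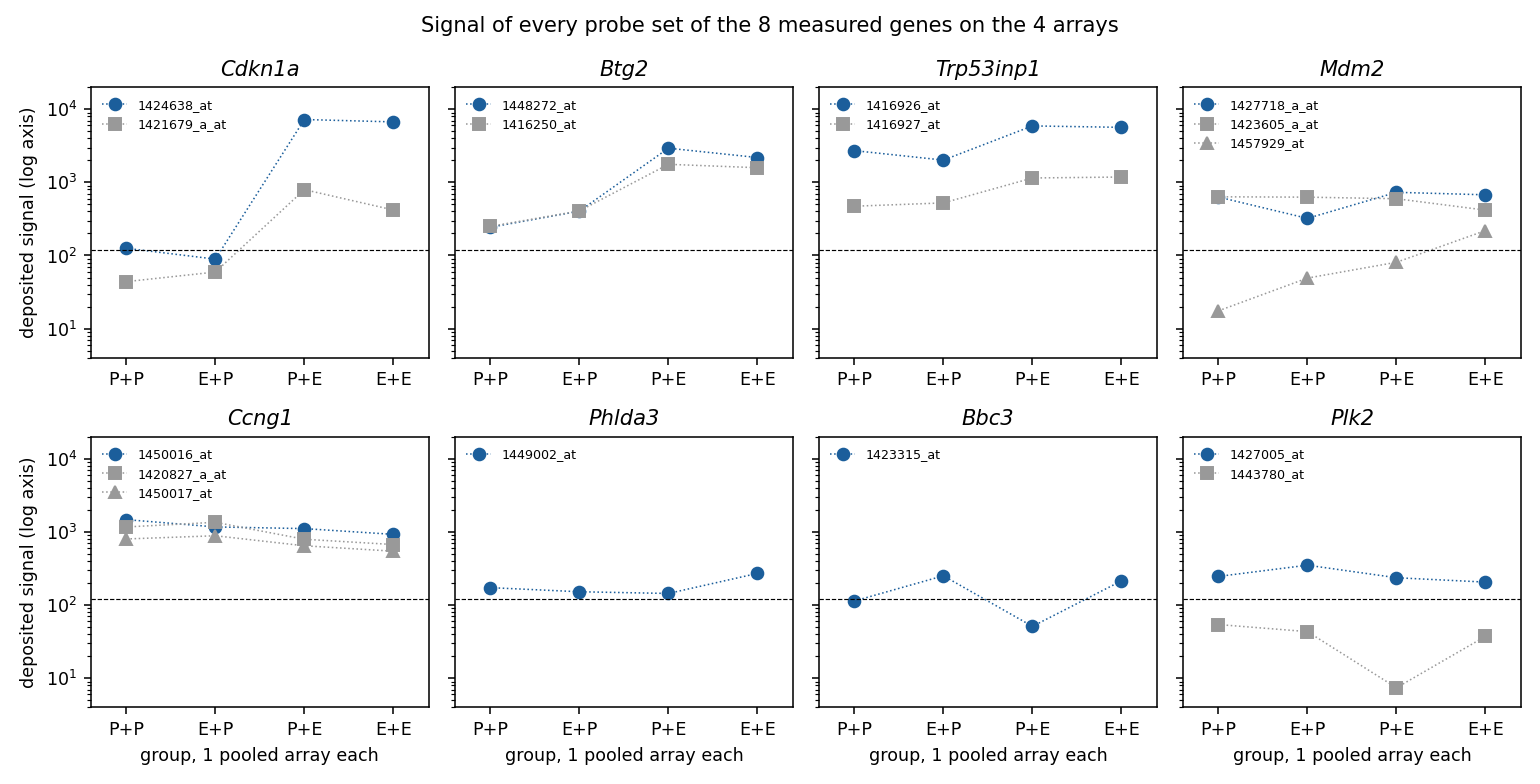
Deposited signal (vertical log axis) of every probe set of the 8 measured genes on the 4 arrays (horizontal axis; 1 pooled array per group, so points have no error bars). Blue points are the brightest probe set of each gene, grey points its others, dotted lines join points of 1 probe set, and the dashed line is the filter level of 120.0. Cdkn1a was at 125.5 and 89.2 in P+P and E+P and at 7243.8 and 6720.6 in P+E and E+E, whereas the Ccng1 points stay between 546.4 and 1476.5.

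Mdm2 and Ccng1, which are among the most regular p53 targets in many tissues, stayed within 2-fold on their brightest probe sets. Mdm2 read 630.6 in P+P, 321.9 in E+P, 731.7 in P+E and 676.1 in E+E, with log2 ratios of 0.22 and 0.96 (1.16-fold and 1.95-fold). Its low value was E+P, so the second ratio came from the PBS array more than from the ethylbenzene array. The gene's probe sets disagreed: a second one read 635.2, 628.0, 597.6 and 417.5 and gave -0.07 and -0.55. The remaining one read 17.5, 49.1, 80.8 and 219.3, below the filter level on 3 of the 4 arrays, and gave 0.91 and 1.42, or 0.00 and 0.62 with those signals at the filter level. No direction is therefore given for Mdm2.

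Ccng1, the gene of cyclin G1, which recruits a phosphatase to MDM2, was lower by less than 2-fold on all 3 of its probe sets. The brightest read 1476.5 in P+P, 1173.1 in E+P, 1112.8 in P+E and 927.9 in E+E. The log2 ratios were -0.36 and -0.29, and those of the others were -0.49 and -0.93, and -0.26 and -0.65. Ethylbenzene arrays lay below their PBS arrays in each of these 6 ratios, and the median ratio of all genes was -0.07 and -0.05. Ccng1 carried the paired p53 site in its promoter window and was not higher at 5 h. Binding of p53 to that site was not measured, and any part of p53 in these values was not tested.

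The remaining genes were dim and none was 2-fold apart in either second-exposure comparison. Phlda3, a target that restrains AKT signalling, had 173.3 in P+P, 152.3 in E+P, 144.3 in P+E and 271.5 in E+E, with log2 ratios of -0.38 and 0.57. Bbc3, the gene of the cell death protein PUMA, had 113.8, 251.7, 51.2 and 214.5, with -0.89 and -0.30. Its P+E signal was below the filter level, and the first ratio was -0.05 with that signal at the level. Plk2, a polo-like kinase gene, had 246.7, 351.7, 236.8 and 206.4, with -0.18 and -0.75. Phlda3 was highest in E+E, whereas Bbc3 was high on both arrays of mice given ethylbenzene first and Plk2 in E+P alone. A further Plk2 probe set read 54.2, 43.4, 7.4 and 37.4, below the filter level on all 4 arrays, and gives no fold.

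Of the 8 genes past the filter, 3 were at least 2-fold higher in P+E than in P+P (Cdkn1a, Btg2 and Trp53inp1), against 6.54% of all 11513 genes, and 0 were at least 2-fold lower, against 6.7%. For E+E against E+P the same 3 were higher, against 6.91% of all genes, and 0 lower, against 6.74%. In both comparisons at once 2.87% of all genes were higher and 1.86% lower. The median log2 ratio of the 8 genes was 0.02 and 0.77, beside -0.07 and -0.05 for all genes. The split was wide: 4 of 8 genes were above 0 in the first comparison and 5 of 8 in the second, and Cdkn1a, with the highest ratio, was far from the median in both.

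**Figure D2:**
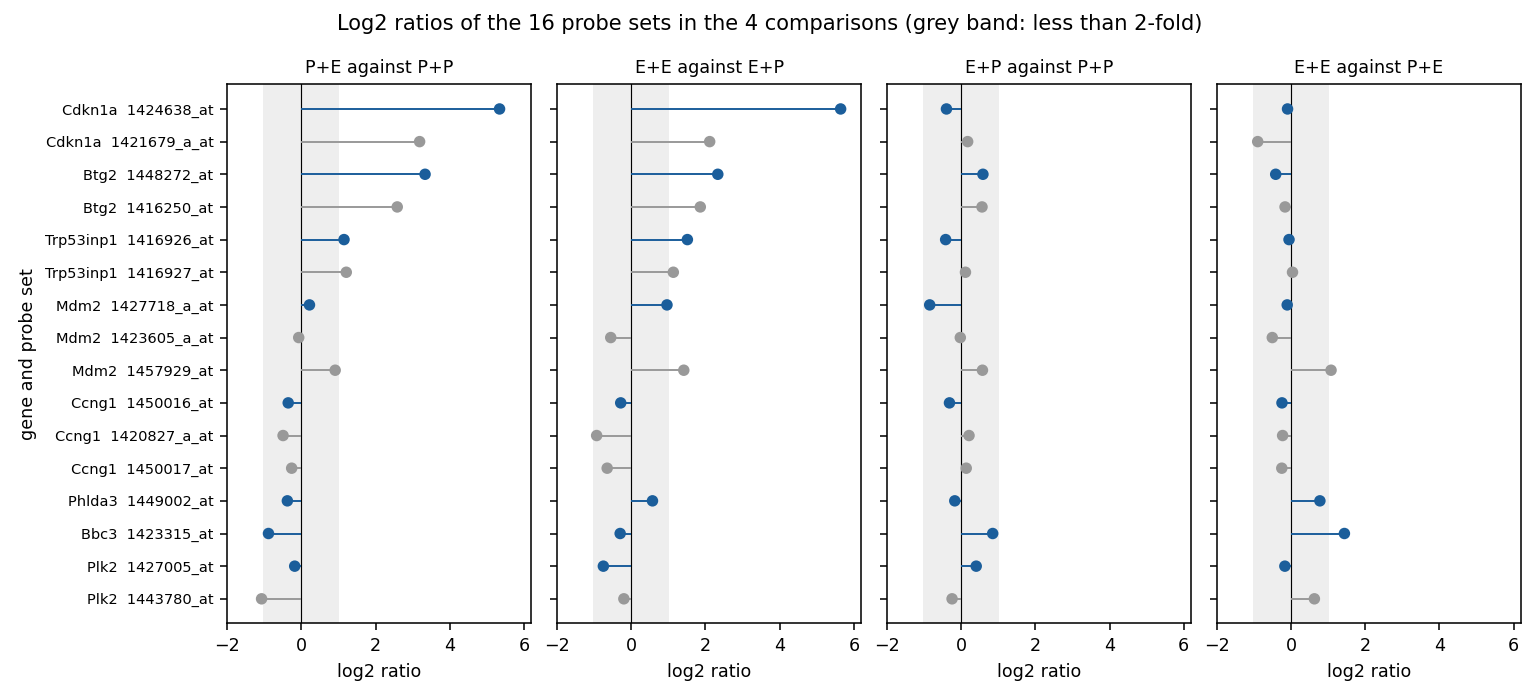
Log2 ratio (horizontal axis) of each of the 16 probe sets (rows) in the 4 comparisons (panels); blue marks the brightest probe set of a gene and the grey band ratios of less than 2-fold. Both probe sets of Cdkn1a, Btg2 and Trp53inp1 lie above the band in the first 2 panels, the 3 of Mdm2 scatter to both sides of 0, and the 3 of Ccng1 are below 0 in both.

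**Figure D3:**
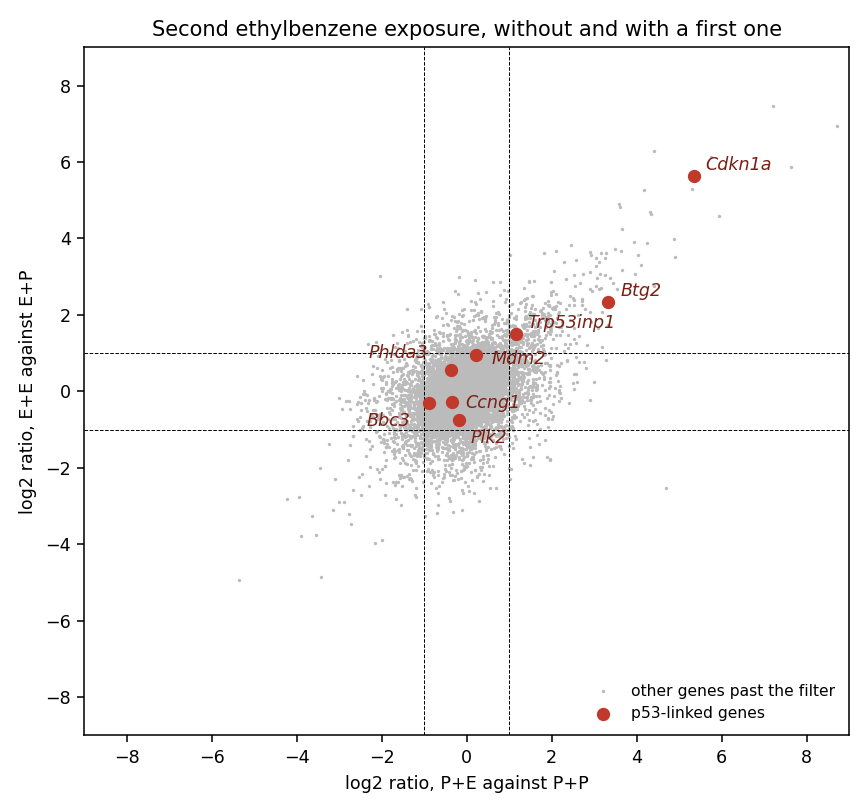
Log2 ratio of E+E against E+P (vertical axis) plotted over that of P+E against P+P (horizontal axis) for the 11513 genes past the filter (grey points), with the 8 measured genes in red and dashed lines at 2-fold. Cdkn1a lies at 5.34 and 5.64, near the upper right edge of the cloud, and Mdm2, Ccng1, Phlda3, Bbc3 and Plk2 lie inside the central square.

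With PBS given second, 7 days after the first exposure, none of the 8 genes was at least 2-fold higher (2.58% of all genes) or lower (2.73%) in E+P than in P+P. Cdkn1a was at -0.40 there (-0.15 with E+P at the filter level), Btg2 at 0.59, Mdm2 at -0.85 and Bbc3 at 0.85. The Btg2 value held on its other probe set, at 0.56. The Mdm2 value did not hold: its other probe sets gave -0.02 and 0.57, the latter from signals below the filter level. No direction is given for Mdm2 here either. When E+E was set against P+E, only Bbc3 of the 8 was at least 2-fold higher (1.44, against 3.98% of all genes), and none was at least 2-fold lower (3.99%). The Bbc3 value rested on a P+E signal below the filter level and was 0.60 with that signal at the level. Cdkn1a was at -0.10 on its brighter probe set and at -0.90 on the other, and Trp53inp1 at -0.06 and 0.04 on its probe sets. These comparisons share arrays with the second-exposure ones.

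The response to the second exposure was set side by side without and with a first one through the difference of the 2 second-exposure ratios, which holds the error of all 4 arrays. It was -1.001 for Btg2, whose PBS signal was higher after a first exposure (404.0 against 243.4) and whose ethylbenzene signal was lower (2188.0 against 2935.9). On the second Btg2 probe set it was -0.72, short of 2-fold. It was 0.95 for Phlda3, 0.74 for Mdm2, 0.36 for Trp53inp1 and 0.30 for Cdkn1a, and on the dimmer Cdkn1a probe set it was -1.07. The other Trp53inp1 probe set gave -0.08. Those of Mdm2 gave -0.48 and 0.50, the latter from mostly dim signals. The probe sets of both genes thus disagreed in sign. On the brighter Cdkn1a probe set only the E+P signal was below the filter level, and on the dimmer both PBS signals were. With those at the level the differences were 0.05 and -0.90, so no direction is given for Cdkn1a.

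Beyond these genes, 49 other p53 targets were listed, of which 47 had a probe set and 34 passed the filter. For P+E against P+P 6 of 34 were at least 2-fold higher and 4 lower, and for E+E against E+P 6 and 2. The shares of all genes were the 6.54% and 6.7%, and 6.91% and 6.74%, given above. The medians were -0.03 and 0.10. Higher in both were 5 (Gadd45a, Plk3, Fas, Ddit4 and Sco2) and lower in both 1 (Tob1), against 2.87% and 1.86% of all genes. Gadd45a, a stress gene linked to DNA repair and growth arrest, read 224.9 in P+P, 540.5 in E+P, 4767.3 in P+E and 5582.1 in E+E, with log2 ratios of 4.10 and 3.29. It was the only one of the 34 that was 2-fold higher in E+P than in P+P (1.05).

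The targets for cell cycle and repair (13 past the filter, medians -0.04 and 0.31) also included the stress kinase gene Plk3, at 1.17 and 1.88, and Btg1, a relative of Btg2, at 1.60 and 0.96. Tob1, an antiproliferative gene of the same family, was lower, with 3179.3, 2987.4, 791.7 and 425.1 and ratios of -1.91 and -2.70. Polk, a translesion polymerase gene, was lower in P+E (-1.46) but not in E+E (0.28). Of the cell death targets (8 past the filter, medians -0.04 and -0.03), the death receptor gene Fas read 916.5, 1100.1, 3354.3 and 3827.0 and had ratios of 1.88 and 1.80. Bid, whose product links death receptors to mitochondria, was at -1.22 and -0.91. The other named genes, Siva1 (-0.54 and -0.14) and Aen (0.12 and 0.47), were within 2-fold.

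Among the metabolic and stress targets (13 past the filter, medians -0.01 and -0.00) 2 passed 2-fold upwards both times. Sco2, needed to assemble cytochrome c oxidase, was at 1.39 and 1.50, and Ddit4, an inhibitor of mTOR signalling also known as a stress and glucocorticoid gene, at 1.16 and 1.06. Sesn2, a sestrin gene that responds to p53 and to amino acid stress, was lower, at -0.80 and -1.64 (-1.57 with E+E at the filter level). Lpin1, a phosphatidate phosphatase gene, read 23034.5 in P+P, 9130.1 in E+P, 7417.6 in P+E and 5554.9 in E+E, with -1.60 and -0.68. It was highest in P+P, and it was lower in E+P than in P+P too (-1.32). Prkab1, a subunit gene of the energy sensor AMPK, was at 0.60 and 1.02.

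Of 25 listed regulators of p53 itself, 23 had a probe set and 21 passed the filter. For P+E against P+P 0 were at least 2-fold higher and 2 lower, and for E+E against E+P 1 was higher and 0 lower, with medians of -0.08 and -0.09. The shares of all genes were 6.54% and 6.7%, and 6.91% and 6.74%, so these counts lie near the background. Atm, the kinase that signals DNA breaks, was at -1.55 and -0.21. Trp53bp1, a break repair factor, was at -2.34 and -0.78 (-1.34 and -0.74 with dim signals at the filter level). The p53 relative Trp63 was at -0.06 and 1.75, the latter 0.65 with its E+P signal of 31.1 at the filter level. The checkpoint kinase gene Chek2 was at 0.74 and -0.91 (-0.34 in the second with E+E at the filter level). Mdm4, the partner of Mdm2, was at -0.17 and -0.44. None of these 5 was 2-fold apart the same way in both comparisons.

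Of 7 other CDK inhibitor genes, 5 passed the filter, 0 were at least 2-fold higher in either comparison, and 1 and 2 were lower. The shares of all genes were 6.54% and 6.91% higher and 6.7% and 6.74% lower, for this list and the p21 partners below. Cdkn1b, the gene of p27, was at -0.02 and -0.09, Cdkn2c at -0.87 and -1.18, Cdkn2b at 0.08 and -1.50 (-0.61 with E+E at the filter level) and Cdkn3 at -1.02 and 0.54. Cdkn3 is the gene counted as lower in the first comparison, and it was at -0.94, short of 2-fold, with its P+E signal at the filter level. Of the genes counted as lower in the second, Cdkn2c keeps its value and Cdkn2b loses 2-fold in the same way. Cdkn2d was at 0.92 in the second comparison, and in the first both its signals were below the filter level. Among the partners that p21 binds, 9 of 12 genes passed the filter, 0 were higher, and 3 and 1 were lower, with medians of -0.87 and -0.08. The G1 cyclin gene Ccnd1 was the one lower in both (-1.59 in each), with 1153.4 in P+P, 2239.2 in E+P, 357.2 in P+E and 700.0 in E+E. Cdk6 was at -1.22 and -0.47, Ccnd2 at -0.98 and -0.48 and Cdk1 at -1.23 and 0.32. Pcna, the replication clamp that p21 also binds, was at 0.30 and 0.10.

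Proliferation genes that p53 and p21 repress through the DREAM complex could hardly be read in this tissue: of 16 listed, 15 had a probe set and 3 passed the filter, of which 0 were higher and 2 and 1 lower. Cks2, a CDK subunit gene, was at -0.89 and -1.35, Cdc20, an activator of mitotic exit, at -1.87 and -0.45 (-0.74 in the first with P+E at the filter level), and Cdk1 as above. In the BCL2 family, which governs mitochondrial cell death, 11 of 14 genes passed the filter, with medians of -0.02 and -0.28. At least 2-fold higher were 0 in the first comparison and 1 in the second, and 1 was lower in each. For this family and the DREAM list, the shares of all genes were 6.54% and 6.91% higher and 6.7% and 6.74% lower. Bcl2l1, the gene of the survival protein BCL-XL, was at 0.82 and 1.22, and Bmf, a pro-death member, at -0.02 and -1.29. Hrk was at -0.77 (-0.32 with P+E at the filter level) and -0.66. The pro-death members Bcl2l11 (0.67 and 0.25) and Bak1 (0.58 and 0.27) were above 0, within 2-fold.

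Relatives of the followed genes (the BTG/TOB, polo-like kinase, cyclin G and PHLDA families) gave 8 genes past the filter of 12, with medians of -0.22 and -0.28. Of these 2 and then 1 were at least 2-fold higher and 1 and then 2 lower. The shares of all genes were 6.54% and 6.91% higher and 6.7% and 6.74% lower, for this list and the next. Beside Btg1, Plk3 and Tob1, Phlda1 read 3905.5, 8664.1, 2559.8 and 3034.3 with ratios of -0.54 and -1.47, and it was higher in E+P than in P+P (1.15). Of 18 other transcription factors reported to act on the Cdkn1a promoter, 16 passed the filter, with medians of 0.39 and 0.22, of which 6 were higher and 2 lower in the first comparison and 5 and 3 in the second. At least 2-fold higher in both comparisons were 5: Egr1 (3.06 and 2.98), Stat3 (2.21 and 1.68), which carries interleukin-6 signals, Klf6 (2.19 and 1.49), Cebpd (1.58 and 2.03) and Cebpb (1.11 and 1.30). Lower in both were 2, Cebpa (-2.03 and -1.18) and Foxo3 (-1.18 and -1.62). Of all genes 2.87% were higher in both and 1.86% lower. The part of any of these factors in the Cdkn1a signal was not tested.

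**Figure D4:**
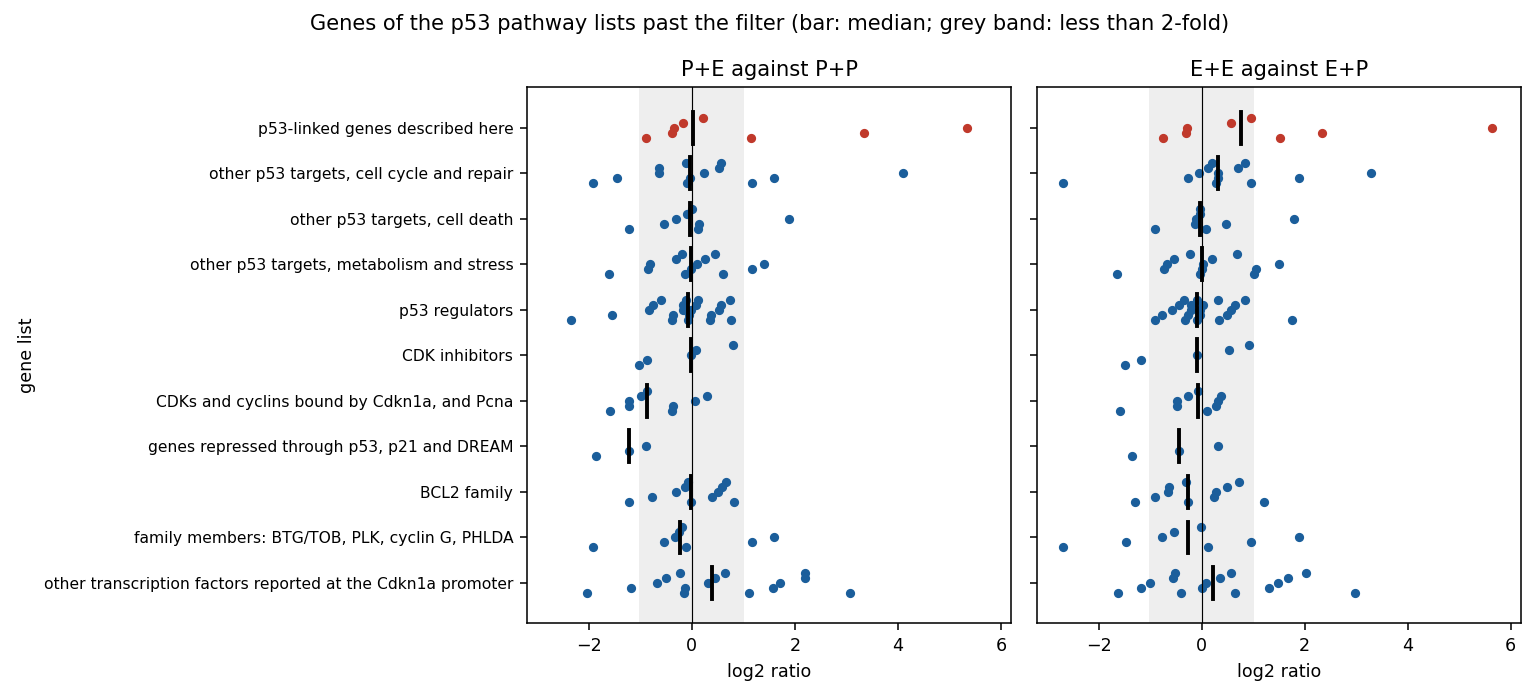
Log2 ratios (horizontal axis) of the genes past the filter in the p53 pathway lists (rows), for P+E against P+P (left) and E+E against E+P (right). Each point is 1 gene (red, the 8 measured genes followed here), black bars are medians, and the grey band is less than 2-fold. The medians of the other p53 target lists lie between -0.04 and 0.31, and the points of Cdkn1a at 5.34 and 5.64 are the farthest to the right.

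Profiles across the 4 arrays were compared among the genes past the filter, with clone and predicted gene names left out. The nearest to that of Cdkn1a was that of Saa1, an acute phase gene. Its Euclidean distance was 0.45 between log2 values centred on each gene's mean. Next came the chemokine gene Cxcl1 (0.47), Fbf1 (0.87), Pdk4 (0.997), which restrains glucose oxidation, and Arid5a (1.05), which stabilises inflammatory messenger RNAs. Saa1 read 2866.5 in P+P, 2174.5 in E+P, 157188.3 in P+E and 174754.4 in E+E. None of these 5 is on the p53 lists. The followed genes and the other p53 targets are only 8 and 34 of the 11513 genes past the filter, so this absence carries little weight. For Btg2 the nearest were Retreg1 (0.34), Cpb1 (0.36), Slc16a6 (0.39), Clpx (0.41) and Rab30 (0.43). Cpb1 is a pancreatic acinar marker, with 15.6 and 42.1 on the PBS arrays and 489.5 and 516.5 on the ethylbenzene arrays. Pdk4, Arid5a, Cpb1 and Slc16a6 had signals below 120.0 on both PBS arrays, and the distances used these as measured. For Cpb1 the ratios of 3.12 and 2.68 become 1.70 and 1.77 with them at the filter level. Likeness over 4 arrays is a description only.

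The 9 measured hepatocyte markers were above the filter level on every array, and their summed normalized signal was 971724 to 1016061, with bright genes such as Alb (145039.5 to 196578.9) carrying most of it. Apob was at 1.16 and -0.08, and Ass1, with 164.0 to 347.8, at -0.56 and -0.995. Some markers of other cell types were higher on the same arrays as Cdkn1a, and their part in its result was not tested. Of 8 measured neutrophil markers 5 passed the filter, with 2 at least 2-fold higher in both second-exposure comparisons, against 2.87% of all genes. The summed signal of the 8 was 1280 in P+P, 990 in E+P, 4466 in P+E and 6722 in E+E. These 2, S100a8 (3.29 and 3.62) and S100a9 (3.62 and 4.83), made up most of both later sums. S100a8 lay below the filter level in P+P and S100a9 in E+P. At that level the first ratio of S100a8 was 3.25 and the second of S100a9 4.305. For them passing the filter and being higher were not independent. Csf3r (2.08 and 0.08) was higher in P+E as well, at 553.8 against 88.3 in P+P. Its first ratio was 1.87 once the dim P+P signal was raised to the filter level. The medians of the 5 were 2.08 and 1.33. Camp (-1.51 and 0.06), Ngp (-0.89 and 1.33), Mpo and Ltf were lower in P+E than in P+P. The P+E signals of Camp, Mpo and Ltf were below the filter level. Of 8 measured pancreatic acinar markers all passed, with sums of 2994, 2567, 7783 and 7917. Both ratios of 7 of them reached 2-fold upwards, which held for 2.87% of all genes. Ctrb1, Cpa1 and Cpb1 lay below the filter level on both PBS arrays and passed only through their ethylbenzene signals. Cela3b and Cela2a lay below it in E+P and Clps in P+P. For all of these genes passing and being higher were not independent. Raising such PBS signals to that level left 2.34 and 2.38 for Ctrb1, 1.63 and 1.65 for Cpa1, and 1.70 and 1.77 for Cpb1. It left 3.58 and 3.58 for Cela3b, 2.58 and 2.84 for Cela2a, and 1.14 and 1.13 for Clps. Kupffer cell markers (10) summed to 17897, 27509, 15898 and 18158 and were highest in E+P. Sums for sinusoidal endothelial (8598 to 9319) and erythroid markers (2063 to 3448) were lower on both ethylbenzene arrays than on both PBS arrays. Single markers did not all follow these sums. Of the 8 endothelial markers 3 were above 0 in each comparison, among them Lyve1 (1.56 and 2.01) and Cdh5 (0.56 and 1.04). Alas2 (1770.6 to 3339.0) made up most of the erythroid sums, and Slc4a1 and Epb42 did not pass the filter. The cholangiocyte sums (1045, 850, 1054 and 1379) hardly differed between P+P and P+E, with Sox9 at 1.54 and 2.00 and Epcam at -1.18 and -0.03. Sox9 lay below the filter level on both PBS arrays, and its ratios were 1.43 and 1.87 with those signals at the level. The sums for stellate cells (9500 to 10876) and lymphocytes (733 to 1086) overlapped. No marker had a signal of 0, and Cd3g, Cd4 and Nkg7 lay below the filter level on all arrays.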

How the data were processed

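Liver RNA of 4 groups, pooled by group per the labels, was measured on 4 Affymetrix arrays. The authors deposited linear probe set intensities for 45101 probe sets; the software that summarised them is not given in the sources used here. In these, the mean without the lowest and highest 2% was alike on all arrays. Signals were quantile-normalized (array medians lay 0.24 apart on the log2 scale) and taken as log2(signal + 43.2), where the pseudocount is the 25th percentile of all signals. Probe sets with 1 symbol (34945) were named through the platform annotation, 34741 updated by Entrez identifier in RefSeq (GRCm38.p6). Each gene was represented by its probe set of highest mean, and the filter kept means at or above the median. With 1 array per group there was no test, and the number of arrays limits the precision. Differences of 2-fold or more were counted, and the steps were tested on simulated data.

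The genes and lists were chosen with earlier results of these data known. Named genes were all 10 members, up to 4 genes of each list with the largest mean size of both second-exposure ratios, the 5 nearest profiles to Cdkn1a and Btg2, and markers at the extremes. Polk, Prkab1, Mdm4, Cdkn1b, Pcna, Cebpb, Cebpa and Foxo3 were named after their values were seen, as were Bcl2l11 and Bak1. Ratios include signals below 120.0 as measured, and values called "at least" or "at the filter level" put those signals at that level. Promoter windows came from RefSeq. Python 3.11.15, numpy 2.4.6 and pandas 2.3.3 were used.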

Additional observations from a re-analysis of the deposited data

Results flagged for a closer look

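Phlda3 differed in the direction of its second-exposure ratio between mice given PBS first (-0.38) and mice given ethylbenzene first (0.57), a difference of 0.95. Each direction is that of 1 pair of pooled arrays, the signals ran from 144.3 to 271.5, and the difference was not tested.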

How the results depend on the processing

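The higher ratios of Cdkn1a, Btg2 and Trp53inp1 in the second-exposure comparisons stayed above 2-fold under each of the 9 alternatives: Cdkn1a from 4.26 to 5.73 and from 3.88 to 5.96, Btg2 from 2.96 to 3.54 and from 2.10 to 2.45, and Trp53inp1 from 1.05 to 1.18 and from 1.32 to 1.53. Calls of dim genes moved. With a pseudocount of 16, 1 gene was at least 2-fold lower in P+E than in P+P (Bbc3, -1.14) in place of 0, and Mdm2 passed 2-fold for E+E against E+P (1.02), as it did with no pseudocount and low signals at the filter level (1.05). With low signals so treated, 1 gene (Bbc3) was at least 2-fold higher in E+P than in P+P in place of 0. The count in E+E against P+E fell from 1 to 0 there (Bbc3, 0.76), with the median of all signals as pseudocount (0.86) and with the filter at the 75th percentile. The Btg2 difference of ratios was -0.86 with that pseudocount and with all probe sets averaged.

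Counts over all genes, higher and lower, were 753 and 771 (P+E relative to P+P), 796 and 776 (E+E relative to E+P), 297 and 314 (E+P against P+P) and 458 and 459 (E+E against P+E). In that order they were 492, 436, 514, 432, 93, 117, 176 and 188 with the larger pseudocount, 1854, 1765, 1875, 1770, 1199, 1313, 1490 and 1555 with no filter, and 354, 264, 379, 290, 38, 34, 44 and 50 with the stricter filter. With probe sets averaged they were 576, 559, 570, 584, 207, 186, 299 and 288. The settings also differ in the number of genes counted. It was 11513 in the main processing, 11516 with the larger pseudocount, 18193 with no filter, 6860 with the stricter filter and 10134 with averaging. Beyond that, the cause of the changed counts was not tested. No paired analysis was possible because each group has 1 array and the labels give no replicate numbers.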
